A study of Homo sapiens with 40 samples.

Results

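The glycolysis and hypoxia response genes were followed in chromatin accessibility maps of the HER2-positive breast cancer line BT474 and its trastuzumab-resistant derivative BT474R. The set held 36 genes: the enzymes from hexokinase to lactate dehydrogenase, the pyruvate dehydrogenase kinases, the glucose and lactate transporters, 2 hypoxia-inducible factors, 2 prolyl hydroxylases and 5 hypoxia targets. Peaks of all 40 libraries were merged wherever they overlapped by at least 1 bp, and 71600 regions with a peak in 2 or more libraries were kept. A region was assigned to a gene when its midpoint lay in the gene body or within 20 kb of either end (GENCODE release 44, GRCh38). This gave 285 regions of the 71600, and all 36 genes had at least 1. EGLN3 had 48, HK1 and EPAS1 had 15 each, and ALDOC and EGLN1 had 1 each.

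Glycolysis splits glucose into pyruvate, and lactate dehydrogenase turns pyruvate into lactate, which leaves the cell through monocarboxylate transporters such as the products of SLC16A1 and SLC16A3. When oxygen is low, HIF1A and its paralogue EPAS1 (HIF-2 alpha) escape the prolyl hydroxylases EGLN1 and EGLN3 and bind the core letters ACGTG or GCGTG near genes of glucose use, angiogenesis and mitophagy. In HER2-positive breast cancer cells, signalling from the ERBB receptors is known to raise glycolysis through PI3K, mTORC1 and HIF1A. Accessibility shows where the transposase can enter the DNA, and it does not measure transcription or glucose use.

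BT474 and BT474R cells were serum-starved and then given EGF (the ligand of EGFR), HRG (heregulin, the ligand of ERBB3 and ERBB4) or vehicle control for 1, 12 or 24 h, and a baseline group was taken at 0 h. BT474R is a single clone that grew out of BT474 cells kept in trastuzumab, so a difference between the lines is a difference between that clone and its parent. Each of the 20 groups had 2 libraries, and the methods call the treatments duplicates without saying whether these were grown or treated on separate days. The limma p-values therefore measure only the spread between these duplicates, which may be technical. Fisher's exact test pooled the libraries of a line, or of an arm within a line, as separate draws. Its p-values do not measure a spread between independent cultures. The lists held 47571 to 56846 peaks in BT474 and 32479 to 56494 in BT474R, with the shortest at 12 h in BT474R. Read depth is unknown. All 7 luminal epithelial marker genes examined (EPCAM, KRT8, KRT18, KRT19, ERBB2, GATA3, CDH1) had a promoter peak in all 40 libraries, while of 7 markers of immune, endothelial and stromal cells 6 had none in any library and COL1A1 had one in all 40.

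A region is called open in a library that lists a peak in it. An absent peak means that no peak with a score of at least 200, the lowest score listed, was called there, and the closed state itself was not measured. Levels are given as percentiles of the peak score, from 0 for the lowest to 100 for the highest, either within a library's whole list or among the 25166 regions open in all 40 libraries (the shared percentile). The score is an area and grows with peak width, so levels of different genes were not put in order. In bulk material a region open in fewer cells cannot be told apart from a region less open in each cell.

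The regions that carry the main results are shown here with their sequence, read 5′ to 3′ on the strand of the gene from GRCh38. Capitals mark the letters TGANTCA, the palindromic core bound by AP-1 factors such as FOS and JUN, which act downstream of ERBB signalling. ACGTG and GCGTG were also searched on both strands and had no match in these windows. The first is the 300 bases around the summit of an EGLN3 intronic region, chr14:34043665-34043964. In BT474 this region had a peak in more libraries of each ligand than of control, by Fisher's exact test at unadjusted p only.
EGLN3 intron: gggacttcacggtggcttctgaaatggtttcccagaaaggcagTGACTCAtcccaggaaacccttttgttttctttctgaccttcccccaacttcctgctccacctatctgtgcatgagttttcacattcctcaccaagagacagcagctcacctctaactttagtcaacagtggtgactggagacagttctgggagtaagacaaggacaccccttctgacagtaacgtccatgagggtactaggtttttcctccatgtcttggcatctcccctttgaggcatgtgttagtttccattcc
The second is the 250 bases before the canonical start of LDHB, chr12:21657843-21658092, which overlap a promoter region open in BT474 and in no BT474R library. These bases reach past the upstream end of that region. The 300 bases around the summit of the region, not printed, did hold GCGTG or its reverse complement.
LDHB upstream: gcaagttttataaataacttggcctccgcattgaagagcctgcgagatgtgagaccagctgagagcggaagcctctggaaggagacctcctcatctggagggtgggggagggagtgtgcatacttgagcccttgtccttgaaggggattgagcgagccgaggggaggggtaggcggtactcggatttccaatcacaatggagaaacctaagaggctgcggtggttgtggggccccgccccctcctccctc
The third, chr11:18383741-18384040, is the summit window of a region upstream of LDHA that rose with both ligands.
LDHA upstream: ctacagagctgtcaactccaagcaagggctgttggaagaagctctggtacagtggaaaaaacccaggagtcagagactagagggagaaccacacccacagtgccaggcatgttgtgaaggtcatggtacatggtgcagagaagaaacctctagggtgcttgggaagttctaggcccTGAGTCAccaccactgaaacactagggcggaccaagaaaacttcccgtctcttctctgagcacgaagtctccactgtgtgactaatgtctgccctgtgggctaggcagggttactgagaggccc
The fourth, chr1:8871281-8871580, comes from an ENO1 intron whose ligand effect differed between the lines.
ENO1 intron: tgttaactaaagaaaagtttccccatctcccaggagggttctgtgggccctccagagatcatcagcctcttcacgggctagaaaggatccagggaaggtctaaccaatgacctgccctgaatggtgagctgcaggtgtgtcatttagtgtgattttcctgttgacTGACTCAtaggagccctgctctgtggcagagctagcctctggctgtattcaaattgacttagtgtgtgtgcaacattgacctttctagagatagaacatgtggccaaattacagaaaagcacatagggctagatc
The last, chr17:82267627-82267926, lies in the SLC16A3 window inside an intron of the neighbouring kinase gene CSNK1D, and it rose with EGF in both lines.
SLC16A3 window: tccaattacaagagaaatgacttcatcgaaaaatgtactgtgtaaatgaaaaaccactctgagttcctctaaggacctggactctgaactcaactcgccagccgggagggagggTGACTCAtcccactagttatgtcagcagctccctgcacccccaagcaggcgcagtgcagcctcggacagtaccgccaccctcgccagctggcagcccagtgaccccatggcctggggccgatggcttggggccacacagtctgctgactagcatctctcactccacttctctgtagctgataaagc
Each of these windows held 1 match to the AP-1 letters except the LDHB window, which held none.

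The promoters of most members were open throughout. A promoter region, within 1 kb of the start of the canonical transcript, was found for 32 of the 36 genes, and in 29 of them it was open in all 40 libraries. Among the 285 member regions, 143 (50.2%) were open in all 40, against 35.1% of all regions, and members were wider, with a median of 785 bp against 551 bp. Of the 65 member regions at any protein-coding promoter 78.5% were open in all 40, against 72.4% of all promoter regions. Of the 220 away from promoters 41.8% were, against 27% in the whole series.

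In the upper pathway, the promoters of HK1 and ALDOA, which phosphorylate glucose and split fructose bisphosphate, stood at within-list percentiles of 96.1 ± 0.987 and 97.1 ± 0.996 in BT474 (SD, n = 20) and at 97.9 ± 0.497 and 98.6 ± 0.578 in BT474R. HK2, the hexokinase that tumours commonly induce, stood at 80.4 ± 5.09 and 82.5 ± 4.23. GPI, PFKL, PFKM and TPI1 also had a promoter region open in all 40, with line means between 45.2 for PFKM in BT474R and 81.5 for TPI1 in BT474. PFKP, the platelet-type phosphofructokinase, had its main promoter region (chr10:3067945-3069501) in 20 BT474 libraries at percentiles of 57.5 to 78.9 and in 15 BT474R libraries at 9.24 to 61.3. Of the 5 BT474R libraries without it, 4 were 12 h libraries, where the lists were shortest. A smaller PFKP region at the start itself (chr10:3067228-3067781) was open in 11 BT474 and 1 BT474R libraries. HK3 and ALDOC had no promoter region.

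In the lower pathway the promoter of GAPDH, which feeds electrons to NADH, stood at 99.4 ± 0.152 in BT474 and 98.9 ± 0.649 in BT474R (SD, n = 20), and that of PKM, the last enzyme of the pathway, at 98.1 ± 0.817 and 96.8 ± 1.74. PGK1, PGAM1, ENO1, ENO2 and ENO3 had promoter regions open in all 40, and PGK1 had a second one in 2 BT474 and 4 BT474R libraries. LDHA, whose enzyme form favours lactate, stood at 93 ± 1.38 and 90.2 ± 1.19. LDHB, the other subunit, had its promoter region (chr12:21657215-21658034) in all 20 BT474 libraries, at percentiles from 13.1 to 45.6 with a median of 31.8, and in none of the 20 BT474R libraries. PDK1, PDK2 and PDK3, kinases that hold pyruvate back from the mitochondria, had means between 87.4 and 98.8, whereas PDK4 stood at 61.7 ± 6.02 in BT474 and at 42.1 ± 15.7 in BT474R.

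Among transporters, the promoter of SLC2A1 (GLUT1) was at 93.3 ± 1.13 and 94.1 ± 1.58 (SD, n = 20), while SLC2A3 (GLUT3) and SLC16A3 (MCT4) had none. The SLC16A1 (MCT1) promoter region (chr1:112955773-112956523) was open in all 20 BT474 libraries, at 7.99 to 48.5 with a median of 29.7, and in 2 BT474R libraries at 4.04 and 5.92. HIF1A was at 97 ± 0.382 and 93.7 ± 0.828, EPAS1 at 81.4 ± 2.74 and 94 ± 2.14, EGLN1 at 93.9 ± 1.24 and 95.9 ± 1.6, and EGLN3 at 91.3 ± 0.962 and 89.3 ± 2.05. The hypoxia targets VEGFA, NDRG1 and ANKRD37 were between 84.1 and 99 in both lines, BNIP3 was at 38.8 ± 8.64 and 38.6 ± 12.5, and ADM was at 94.6 ± 1.31 in BT474 and 55 ± 13.7 in BT474R. A second VEGFA region just inside the gene (chr6:43770485-43772913) was open in all 20 BT474 and in 11 BT474R libraries.

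**Figure D1:**
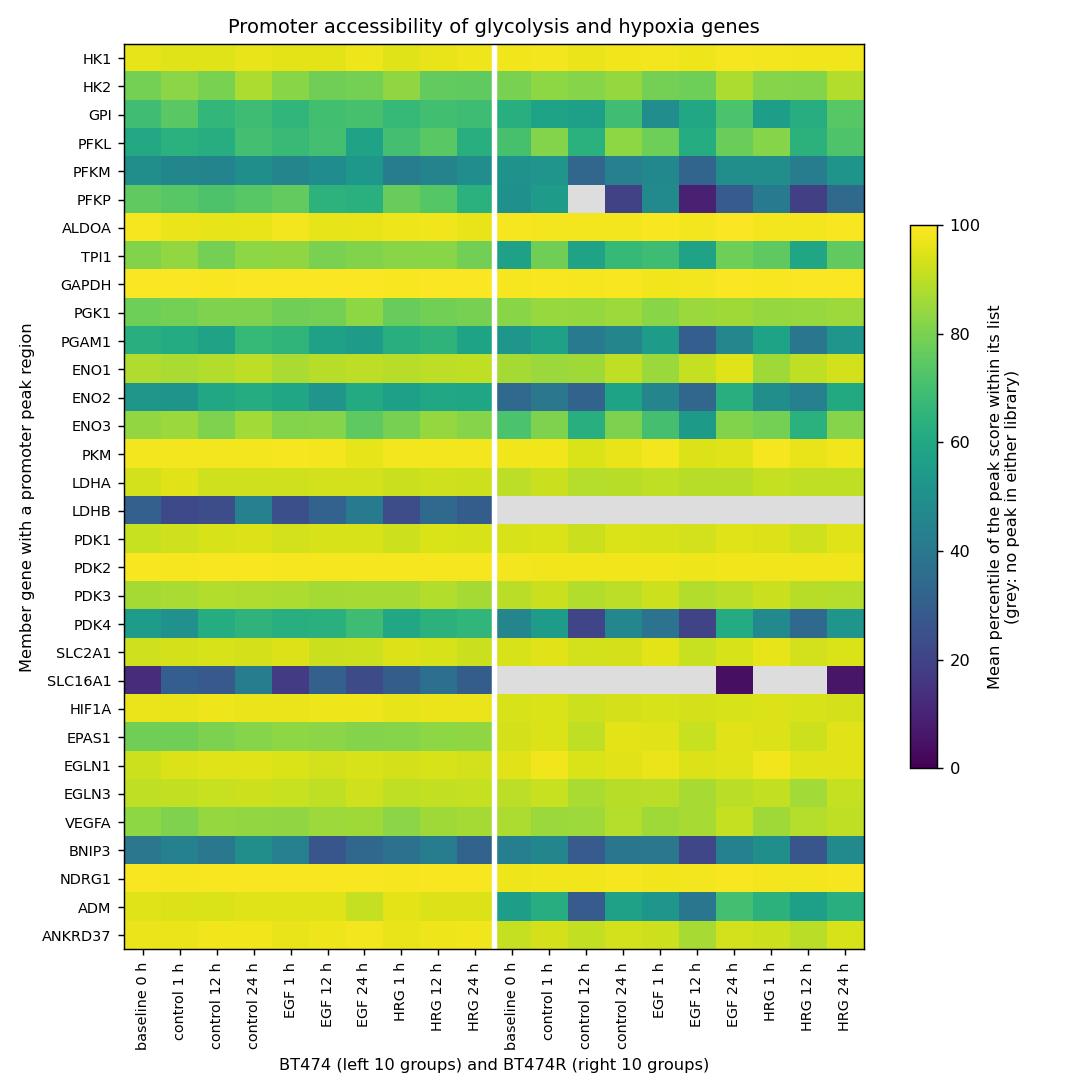
Mean within-list percentile (colour, 0 to 100) of the promoter region of 32 member genes (rows) in the 20 groups of 2 libraries (columns), with grey where neither library had a peak. Rows such as GAPDH and PDK2 stayed near the top of the scale throughout, LDHB was grey in every BT474R group, SLC16A1 in all but 2 of them, and ADM was lower in BT474R.

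The first comparison asked which member regions had a peak in more libraries of 1 line than of the other. Of 285 regions, 63 differed between the 20 BT474R and 20 BT474 libraries by Fisher's exact test (two-sided, adjusted p under 0.05 over all regions), or 22.1%, against 29.3% of all regions. In BT474R 30 members were open in more libraries (10.5%, against 11% of all regions) and 33 in fewer (11.6%, against 18.4%). These shares were at or below those of the series. Regions open in all 40 libraries cannot differ in presence, and they made up 50.2% of members against 35.1% of all regions. The shares therefore do not compare members with the series among the regions that could differ. Without the 12 h libraries of both lines, an alternative chosen after the data were seen, 27 were open in more and 18 in fewer.

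EPAS1 had 8 of its 15 regions open in more BT474R libraries and 1 in fewer. An intronic EPAS1 region (chr2:46335423-46336497) was open in all 20 BT474R libraries, at within-list percentiles of 14 to 72.6 with a median of 59.1, and in no BT474 library (adjusted p = 4.18e-10, Fisher's exact test). Another, 19.7 kb upstream of EPAS1 (chr2:46277404-46278086), was open in 18 BT474R libraries and in none of BT474 (adjusted p = 5.08e-08). Its promoter, open in every library, was also higher in BT474R, at a mean shared percentile of 89.4 against 63.7 (difference 25.66, SE 1.16, limma adjusted p = 7.57e-16). With peaks trimmed to 400 bp the intronic region differed by 4 libraries and did not pass (adjusted p = 0.253). The lines therefore differed at this gene both in the presence of distal peaks and in the level at the promoter.

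An intronic region of NDRG1, a stress-response gene, 32.5 kb inside the gene, was likewise open in 20 BT474R and 0 BT474 libraries (adjusted p = 4.18e-10, Fisher's exact test). HK2 and PFKL had 3 regions each open in more BT474R libraries and none in fewer.

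In lower glycolysis 0 of 49 regions were open in more BT474R libraries and 7 in fewer. The LDHB promoter described above was among the 2 member regions open in 20 BT474 and 0 BT474R libraries (adjusted p = 4.18e-10, Fisher's exact test). The other (chr15:72197420-72198218) lay in the PKM window, 33.4 kb from the PKM start, at the start of the neighbouring gene GRAMD2A, and stood at within-list percentiles of 48.2 to 72.1 in BT474. The SLC16A1 promoter differed with adjusted p = 5.08e-08, at 2 against 20 libraries. A region 1.9 kb upstream of the canonical SLC2A3 start (chr12:7937900-7938271) was open in 0 BT474R and 19 BT474 libraries (adjusted p = 5.78e-09), at percentiles from 6 to 38.8. With a peak score of at least 400, or with equal numbers of top peaks per library, its difference was -2 libraries and did not pass (adjusted p = 0.859 and 0.962). Promoter peaks of LDHB and SLC16A1 were thus listed in no or few BT474R libraries, while the LDHA promoter was open in all 40 and slightly lower in BT474R (difference -3.74 on the shared percentile scale, SE 0.70, limma adjusted p = 2.98e-05).

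**Figure D2:**
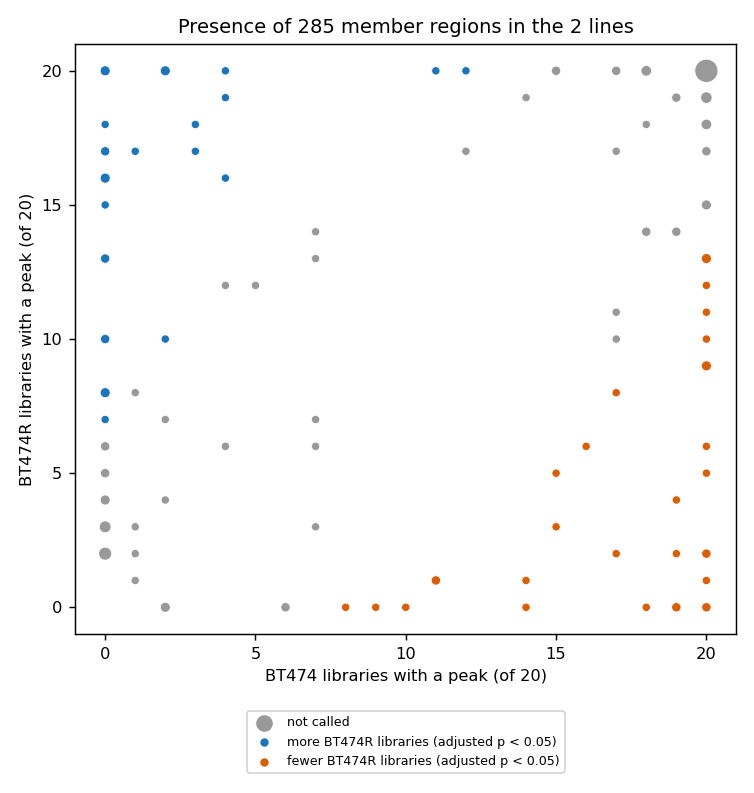
Number of BT474 libraries (x axis) and BT474R libraries (y axis) with a peak in each of the 285 member regions, with point area rising with the number of regions at that position and colour giving the Fisher call at adjusted p under 0.05. The 143 regions open in all 40 libraries sit at the upper right, 30 called regions lie toward the upper left and 33 toward the lower right.

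The second comparison took level rather than presence, over the 143 member regions open in all 40 libraries. Here 75 members were higher and 46 lower in BT474R (limma adjusted p under 0.05), 84.6% in all against 84% of all 25166 regions. Higher members were 52.4% against 41.5% of all regions, and lower ones 32.2% against 42.5%, with a median difference of 3.03 percentiles for members and -0.15 for all. Using percentiles within the whole list, the split became 58 higher and 55 lower, 40.6% and 38.5% of members, against 32.6% and 50.2% of all regions, whose median difference was -1.51 on that scale. Without the 12 h libraries it was 67 and 45. By role, upper glycolysis had 24 higher and 7 lower of 35, lower glycolysis 10 and 13 of 29, the transporters 11 and 9 of 25, the hypoxia factors and hydroxylases 12 and 6 of 21, and the hypoxia targets 10 and 7 of 20. The pyruvate dehydrogenase kinases had 7 and 3 of 11, and lactate dehydrogenase had 1 and 1 of 2. Among the 29 promoters open in all 40, 11 were higher, 15 lower and 3 (PFKM, ENO1 and BNIP3) passed in neither direction. By the wider definition, any protein-coding promoter, 51 member regions were tested, of which 21 were higher and 21 lower. Of all 9343 tested regions at such promoters 2793 were higher and 4942 lower.

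The widest gap was upstream of ADM, the gene of the vasodilator peptide adrenomedullin. The region ending 716 bp before its start (chr11:10302460-10304357) ranged from 80.2 to 92.5 in the 20 BT474 libraries and from 7.65 to 49.5 in the 20 BT474R libraries on the shared percentile scale. The ranges did not overlap, and the difference was -61.53 (SE 1.97, limma adjusted p = 9.88e-19). In 15 libraries this region held more than 1 peak, of which the highest score was used, and with all scores summed the difference was -50.85. The region over the ADM start itself (chr11:10304478-10306492) spanned percentiles of 76.9 to 88.6 in BT474, above the span of 4.86 to 68.5 seen in BT474R. In all, 4 of the 5 tested ADM regions were lower in BT474R and 0 were higher by limma.

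The other 3 named regions that were lower in BT474R lay in introns, while over all members 21 of the 46 lower ones (45.7%) lay at promoters, against 46.2% of all lower regions. An NCAPD2 intron 5.4 kb upstream of GAPDH (chr12:6528577-6529679) was lower by a difference of -30.40 (SE 0.97, adjusted p = 1e-18), an intron of PKM (chr15:72222247-72222906) of -32.61 (SE 1.16, adjusted p = 7.01e-18), and an intron of HK1 (chr10:69375209-69376305) of -22.94 (SE 1.01, adjusted p = 4.65e-16).

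The largest difference in favour of BT474R was in a GRAMD2A intron within the PKM window (chr15:72194987-72195852), at 43 to 81.7 against 2.08 to 21.4 (difference 49.66, SE 1.59, limma adjusted p = 9.56e-19). This region lies 1935 bp from the GRAMD2A start, where BT474R had no peak. The region at the start of PPP4C in the ALDOA window (chr16:30074255-30076649) was at 68.3 to 93.9 in BT474R and at 37 to 57.5 in BT474 (difference 37.73, SE 1.23, adjusted p = 1.4e-18). An intron of VEGFA, the angiogenic factor, (chr6:43774186-43775272) had a median of 36.3 in BT474R and 4.36 in BT474, with ranges that overlapped (difference 29.65, SE 1.10, adjusted p = 1.48e-17). The ENO1 intron printed above (chr1:8871069-8872238) was at 45.3 to 70 in BT474R and at 3.54 to 44.2 in BT474 (difference 36.66, SE 1.45, adjusted p = 5.28e-17).

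The third set of comparisons asked how EGF and HRG moved each level against the control of the same time and line. On the shared percentile scale the number of called members in BT474 grew with time under both ligands. With within-list percentiles the HRG count did not grow from 12 to 24 h. With EGF, 1 member rose and 4 fell at 1 h (3.5% called, against 3.26% of all regions), 11 rose and 0 fell at 12 h (7.69%, against 6.11%), and 21 rose and 7 fell at 24 h (19.6%, against 16%). With HRG, 4 rose and 6 fell at 1 h (6.99%, against 8.88%), 12 rose and 2 fell at 12 h (9.79%, against 8.88%), and 17 rose and 5 fell at 24 h (15.4%, against 14.3%). By direction, 1.72%, 4.43% and 10.6% of all regions rose and 1.55%, 1.68% and 5.4% fell with EGF at 1, 12 and 24 h, while 4.1%, 5.86% and 10% rose and 4.78%, 3.02% and 4.26% fell with HRG. Members were thus called at shares close to those of all regions. With within-list percentiles the risen and fallen counts were 2 and 4 with EGF at 1 h, 20 and 0 with EGF at 12 h, 2 and 9 with HRG at 1 h, 20 and 0 with HRG at 12 h and 16 and 2 with HRG at 24 h. EGF and HRG were compared with the same control libraries, so their calls are not independent of each other.

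In BT474R the calls were fewer. EGF gave 0 risen and 1 fallen at 1 h (0.699%, against 0.854% of all regions), 8 and 0 at 12 h (5.59%, against 7.37%), and 8 and 1 at 24 h (6.29%, against 8.85%), or 9 and 0 at 24 h with within-list percentiles. HRG gave 0 called at 1 h (background 0.00795%), 2 risen at 12 h (1.4%, against 2.22%) and 0 at 24 h (background 0.0318%). At an unadjusted limma p under 0.05, HRG in BT474R gave 5 of 143 members at 1 h and 8 at 24 h. With within-list percentiles 23 members rose with HRG at 12 h in BT474R, where the control lists of 32479 and 40331 peaks were shorter than the HRG lists of 45808 and 42604. Over both lines, 50 of the 143 tested members, from 21 genes, were called in at least 1 ligand comparison. Of these, 43 were called in BT474, 16 in BT474R and 9 in both. The other 93 of the 143 members were called in no ligand comparison, against 16551 of all 25166 tested regions. Members were thus called at a share close to that of the whole series. Series counts for each line alone and for both are not given here.

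**Figure D3:**
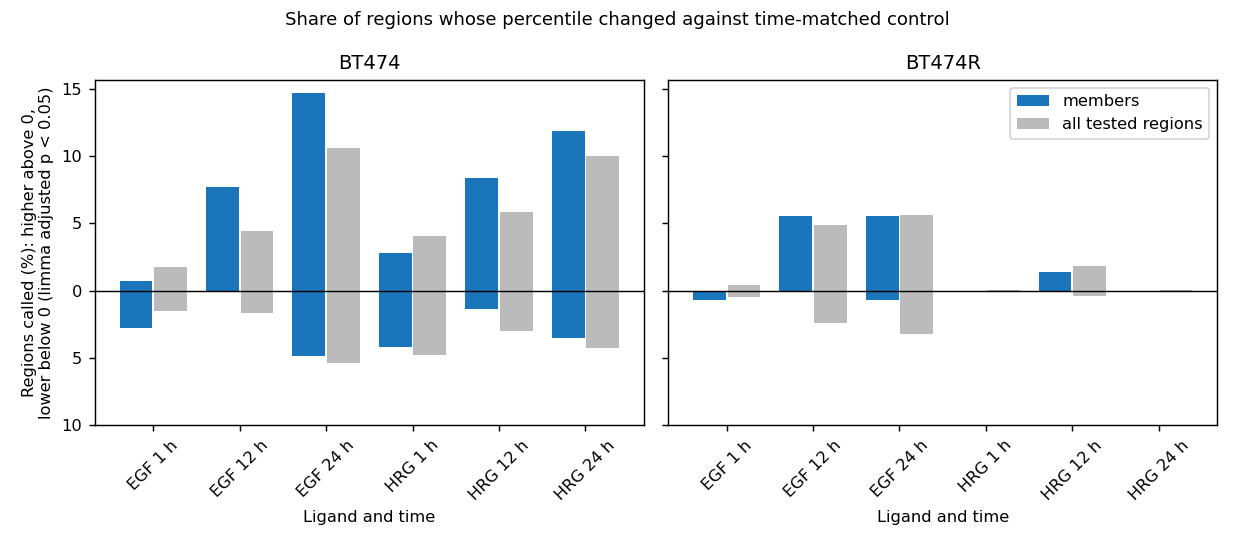
Percent of the 143 tested member regions (blue) and of all 25166 tested regions (grey) whose shared percentile was higher (above 0) or lower (below 0) than in the control of the same time, for each ligand and time in BT474 (left) and BT474R (right). Members and all regions rose together from 1 to 24 h in BT474, where 14.7% of members rose with EGF at 24 h, against 10.6% of all regions.

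The region 10.5 kb upstream of LDHA (chr11:18383341-18384877, intergenic) moved with both ligands. In BT474 the control libraries were at 79.8 and 83.6 at 12 h and at 81.7 and 82.2 at 24 h. The EGF libraries were at 89.6 and 92.5 at 12 h and at 93.8 and 94.5 at 24 h, and the HRG libraries at 91.7 and 92 and at 91.9 and 95.3. Every ligand library was above every control library at these times. The rise with EGF was 9.37 (SE 1.28, limma adjusted p = 0.00168) at 12 h and 12.15 (adjusted p = 0.000103) at 24 h, and with HRG it was 10.21 (adjusted p = 0.00048) and 11.62 (adjusted p = 0.000129). At 1 h it fell by 4.85 with HRG (adjusted p = 0.0326), and the difference with EGF was -3.34 (adjusted p = 0.206). In BT474R it was already at 90.4 to 94.3 in the controls and rose by 5.19 with EGF at 12 h (SE 1.37, adjusted p = 0.0374). The LDHA promoter was called in none of the ligand comparisons.

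In the ENO1 intron the BT474 controls were at 9.1 and 9.78 at 12 h and at 3.83 and 3.54 at 24 h. EGF libraries stood at 41.7 and 40.4 and at 34.8 and 30.2, and HRG libraries at 38.1 and 44.2 and at 30.3 and 35. The groups were fully apart, with rises of 31.62 and 28.80 for EGF (SE 4.21, limma adjusted p = 0.00146 and 0.000833) and of 31.70 and 28.95 for HRG (adjusted p = 0.000716 and 0.000786). In 3 libraries this region held more than 1 peak, and with scores summed the 24 h rises were 13.73 and 14.16 and no longer passed. A second ENO1 region, in an untranslated exon 4.7 kb from the start (chr1:8873572-8874365), rose by 12.38 with HRG at 1 h in BT474 (SE 3.20, adjusted p = 0.0295).

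The CSNK1D intron in the SLC16A3 window (chr17:82267369-82268462) rose in both lines. Its BT474 controls at 24 h were at 63.3 and 57.2, against 72.9 and 74.2 with EGF and 71.8 and 73.5 with HRG (rises of 13.30 and 12.39, SE 2.30, limma adjusted p = 0.00236 and 0.00362). Its BT474R controls at 12 h were at 52.1 and 55.2, against 75.4 and 73.2 with EGF and 65.7 and 68.4 with HRG (rises of 20.61 and 13.37, SE 2.63, adjusted p = 0.000502 and 0.0194). At 24 h in BT474R EGF raised it by 15.17 (adjusted p = 0.00322), and the HRG difference was 6.30 (adjusted p = 0.538). The region is 38.9 kb from the SLC16A3 start and 5238 bp from that of CSNK1D, so its assignment to the transporter rests on the window alone.

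Within SLC16A3 itself a region in an untranslated exon (chr17:82234502-82235275) in BT474 fell by 11.08 with EGF at 1 h (adjusted p = 0.0292) and by 8.17 with HRG at 24 h (adjusted p = 0.0429). The HRG call was lost in 11 of 20 fits that left out 1 library and in 3 of 6 other alternatives. A region shared by an SLC16A3 intron and a CSNK1D untranslated exon (chr17:82241479-82243420) rose by 27.43 with HRG at 12 h in BT474 (SE 5.61, limma adjusted p = 0.00968), from 35.6 and 39.1 to 65.2 and 64.4. Upstream of SLC2A1, 8.4 kb from the start (chr1:42966851-42967593), the level in BT474R went from 31.5 and 22 in the 12 h controls to 48.7 and 50.1 with EGF (rise 22.68, SE 4.51, adjusted p = 0.00835). An SLC2A3 intron (chr12:7970399-7971234) fell by 17.00 with HRG at 24 h in BT474 (SE 4.53, adjusted p = 0.026).

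In the PKM window, an intron of GRAMD2A and an intron of PKM had opposite line levels, and both moved with ligand. The GRAMD2A intron rose by 17.60 with HRG at 12 h in BT474 (SE 3.39, limma adjusted p = 0.00689), from 4.46 and 2.9 to 21.3 and 21.2. The PKM intron (chr15:72222247-72222906) was at 10.7 and 21.8 in the 12 h BT474R controls and at 37.8 and 39 with EGF (rise 22.10, SE 4.36, adjusted p = 0.0079), and at 9.37 and 21.3 against 38.3 and 34.5 at 24 h (rise 21.06, adjusted p = 0.00897). With HRG its BT474R differences were 3.61 at 12 h and 1.49 at 24 h, and neither passed.

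**Figure D4:**
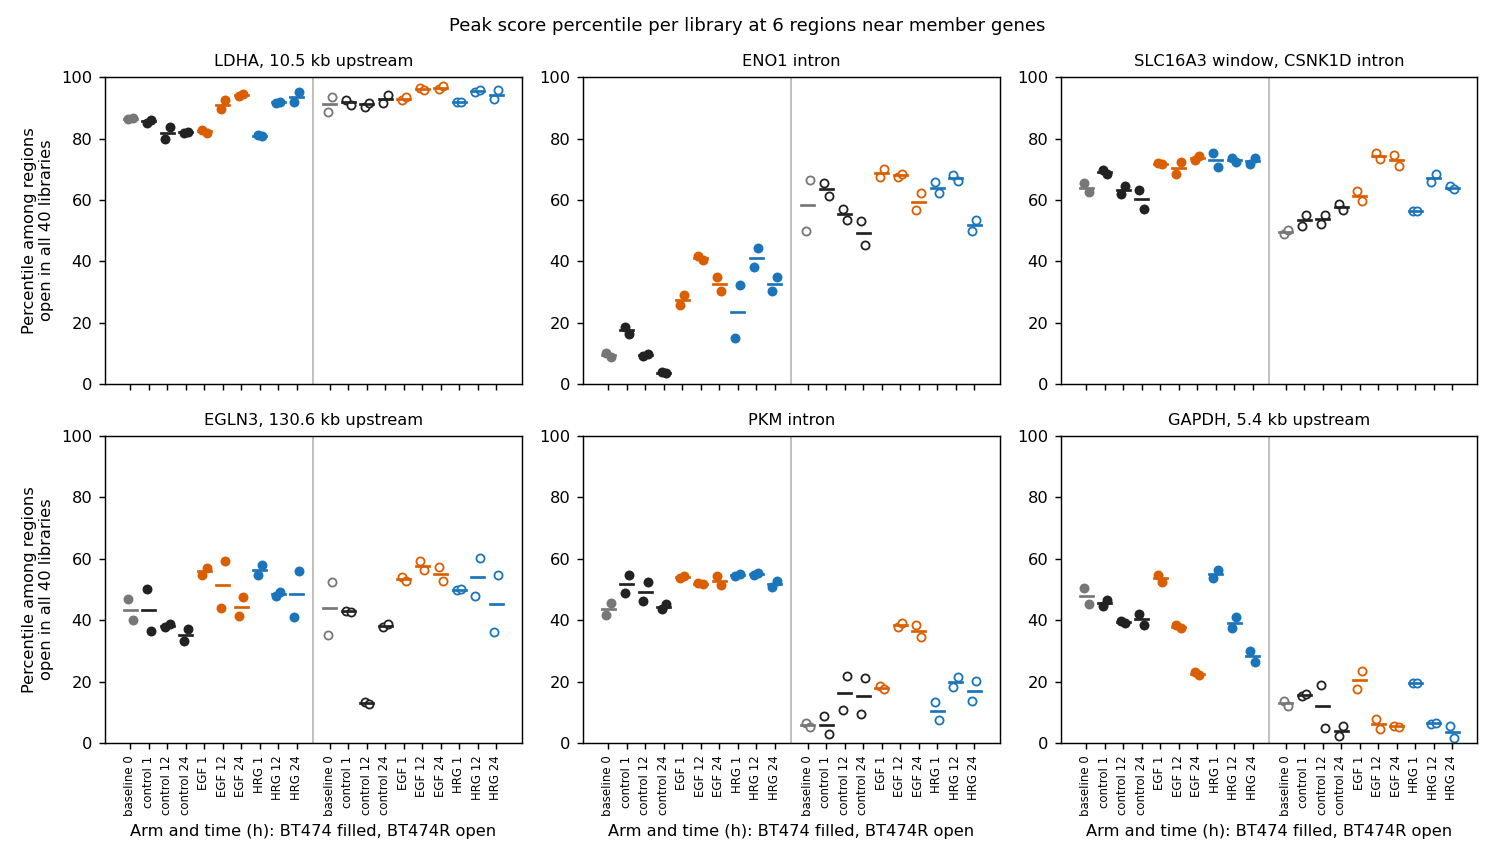
Shared percentile (0 to 100) of 6 member regions in each library (points) with the mean of the 2 libraries of a group (lines), by arm and time in hours, for BT474 (filled) and BT474R (open). The LDHA, ENO1 and SLC16A3-window regions stood above their 12 and 24 h controls under both ligands in BT474, the PKM intron was low in BT474R and rose with EGF there, and the GAPDH-upstream region fell at 24 h in BT474.

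At 24 h in BT474, 6 of the 7 members that fell with EGF lay at a promoter, while 0 of the 21 risen members did. Over all regions 66.7% of the fallen and 3.88% of the risen lay at promoters, against 37.1% of those tested. With HRG 2 of the 5 fallen members (40%, against 52.4% of all fallen regions) and 0 of the 17 risen members (against 2.93%) lay at a promoter. The mitophagy gene BNIP3 had its promoter (chr10:131981666-131982350) at 17.3 and 15.2 in the 24 h controls, at 3.21 and 1.38 with EGF (fell by 13.94, SE 3.03, limma adjusted p = 0.00879) and at 7.05 and 1.57 with HRG (fell by 11.92, adjusted p = 0.0209). The PGAM1 promoter (chr10:97425942-97426744) went from 38.5 and 39.2 to 17.7 and 17.7 with EGF (fell by 21.12, SE 4.95, adjusted p = 0.0128). The region upstream of ADM went from 90.5 and 90.6 to 80.2 and 81.5 (fell by 9.66, SE 0.87, adjusted p = 4.03e-05). With its split peaks summed the ADM difference was -0.52 and did not pass.

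The NCAPD2 intron upstream of GAPDH was called in opposite directions at 1 and 24 h in BT474. At 1 h it rose by 9.38 with HRG (limma adjusted p = 0.0372), from 44.5 and 46.7 to 53.7 and 56.2, a call lost in 6 of 20 fits that left out 1 library and in 2 of 6 other alternatives. At 24 h it fell by 17.70 with EGF (adjusted p = 0.000756) and by 12.04 with HRG (adjusted p = 0.00775), from 42.1 and 38.5 to 23.1 and 22 and to 30 and 26.4. With HRG at 12 h in BT474 the promoter of PDK2 (chr17:50093877-50096364) fell by 0.85 (SE 0.24, adjusted p = 0.0443) and the RNF167 and SLC25A11 region in the ENO3 window (chr17:4939627-4941010) by 5.19 (SE 1.43, adjusted p = 0.0415). Leaving out 1 library lost the PDK2 call in 14 of 20 fits and the ENO3-window call in 12 of 20, and other alternatives lost them in 3 and 2 of 6.

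The remaining named changes concerned hypoxia targets and hexokinase. The NDRG1 intron 47.4 kb inside the gene fell at 1 h in BT474, from 92.1 and 92.5 to 86.9 and 85.2 with EGF (difference -6.28, SE 0.97, limma adjusted p = 0.00579) and to 84.9 and 82.9 with HRG (difference -8.45, adjusted p = 0.000322). The region 2.7 kb from the ADM start (chr11:10307259-10308329) rose in BT474 with HRG at 1 h, from 60.4 and 59.7 to 75.1 and 74.6 (14.79, SE 2.57, adjusted p = 0.00346), and a region 4.3 kb from the ADM start, in an AMPD3 intron (chr11:10309041-10309767), rose with EGF at 24 h in BT474R, from 9.31 and 10.1 to 24.6 and 24.5 (14.86, SE 2.07, adjusted p = 0.000809). An HK1 intron (chr10:69348469-69349555) fell by 19.61 with HRG at 1 h in BT474 (SE 4.47, adjusted p = 0.0157). At 1 h in BT474R the only call was a region at the start of ENSG00000285043 in the ALDOA window (chr16:30052791-30054047), which fell by 31.81 with EGF (SE 6.21, adjusted p = 0.0331). In BT474 the same region rose at 12 h, by 34.48 with EGF and 42.30 with HRG. It held more than 1 peak in 8 libraries, and with scores summed the BT474R difference was -3.95 and did not pass.

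The effect of each ligand, averaged over the 3 times, was then compared between the lines. For EGF 4 of 143 members differed (2.8%, against 3.46% of all regions) and for HRG 2 did (1.4%, against 1.61%). In the ENO1 intron the EGF effect was smaller in BT474R by a difference of -14.09 (SE 3.74, limma adjusted p = 0.0361) and the HRG effect by -17.21 (SE 3.74, adjusted p = 0.015). In the PKM intron the EGF effect was larger in BT474R by 14.00 (SE 2.99, adjusted p = 0.0101), and in the CSNK1D intron of the SLC16A3 window by 6.81 (SE 1.86, adjusted p = 0.0421). In the HK1 intron at chr10:69375209-69376305 the difference was -9.53 (SE 2.62, adjusted p = 0.0438), with a change of -17.46 at 24 h in BT474R from 60.1 and 66.5 to 45.5 and 46.1 (adjusted p = 0.02). In an SLC16A3 exon region (chr17:82235467-82236794) the HRG effect differed by -7.52 (SE 1.64, adjusted p = 0.0157). For the LDHA upstream region the differences were -2.70 for EGF (adjusted p = 0.22) and -3.71 for HRG (adjusted p = 0.111), so a difference between the lines was not shown there. With within-list percentiles 0 members had a larger and 5 a smaller EGF effect in BT474R, and the differences of the PKM intron (13.65), the CSNK1D intron (4.87) and the SLC16A3 exon region (-3.00) no longer passed. With that scale 2 members had a larger and 1 a smaller HRG effect. With the scores of split peaks summed, the ENO1 differences (-6.23 and -9.44) no longer passed.

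EGLN3, the hypoxia-induced prolyl hydroxylase, supplied 48 of the 285 regions. Its annotated body spans 538.5 kb because of long alternative transcripts, whereas the canonical transcript spans 26.8 kb, and 42 of the 48 regions lay more than 20 kb outside the canonical span. The other 35 genes supplied 237 regions. Between the lines 8 EGLN3 regions were open in more BT474R libraries and 7 in fewer. The region 280.7 kb upstream (chr14:34231323-34232161) was open in 20 BT474R and 0 BT474 libraries (Fisher's exact test, adjusted p = 4.18e-10), and the region 500.6 kb upstream, also in an SPTSSA intron (chr14:34451552-34451748), in 0 and 19 (adjusted p = 5.78e-09). Regions called in opposite directions thus lay side by side along the same body.

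**Figure D5:**
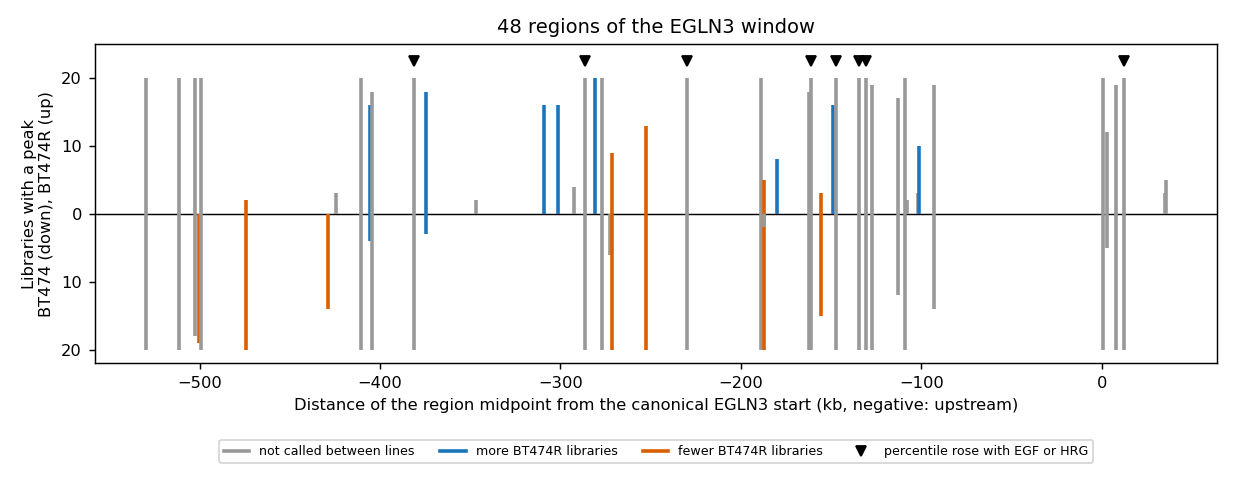
Number of BT474R libraries (upward bars) and BT474 libraries (downward bars) with a peak in each of the 48 EGLN3-window regions, by distance in kb of the region midpoint from the canonical start (negative is upstream), coloured by the Fisher call between lines. Triangles mark regions whose shared percentile rose with EGF or HRG in at least 1 comparison, at 8 positions of which all but 1 lie upstream of the canonical start.

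Presence was also compared with control. With 6 ligand and 6 control libraries compared per line, Fisher's exact test called 2 members in BT474 with EGF (0.702% of 285, against 1.19% of all regions) and 3 with HRG (1.05%, against 1.64%), all gained, at unadjusted p. In BT474R it called 0 with EGF (background 0.388%) and 0 with HRG (background 0.207%). In BT474 only 9 members and 4492 of all regions could be called with EGF, and 9 and 4754 with HRG. In BT474R these numbers were 20 and 6819 with EGF and 16 and 6415 with HRG. The shares therefore do not compare members with the series among the regions that could be called. After adjustment over all regions none of the 71600 passed in any of these 4 comparisons. Within a time point, with 2 libraries against 2 and so no test, members open in both EGF libraries and neither control library of BT474R numbered 11 at 12 h (3.86%, against 2.35% of all regions) and 30 at 24 h (10.5%, against 8.25%). With HRG they numbered 17 at 12 h (5.96%, against 4.63%) and 14 at 24 h (4.91%, against 2.55%), while 11 were open in both control libraries and neither EGF library at 1 h (3.86%, against 4.5%). At 24 h the EGF lists held 51080 and 52126 peaks and the control lists 41833 and 45799, and the part of list length in these counts was not tested. Members gained at 1 h in BT474R numbered 1 with EGF (0.351%, against 0.648%) and 0 with HRG (against 0.785%). In BT474 the gained members numbered 3, 8 and 8 with EGF at 1, 12 and 24 h, and 6, 9 and 7 with HRG. These were 1.05%, 2.81% and 2.81% of members with EGF, against 2.46%, 3.59% and 4.05% of all regions. For HRG the shares were 2.11%, 3.16% and 2.46%, against 2.5%, 4.65% and 3.41%. The EGLN3 intron printed first, 92.9 kb upstream of the canonical start (chr14:34043699-34044178), was open in 6 of 6 EGF and 6 of 6 HRG libraries and in 1 of 6 controls in BT474 (p = 0.0152 each, Fisher's exact test, unadjusted). Its within-list percentiles in the BT474 ligand libraries ran from 30.9 to 49.2, and the single control peak, at 24 h, was at 7.02. In BT474R it was open in 19 of 20 libraries, so presence could hardly differ there. At 24 h in that line it was at 6.81 and 21.3 in controls, at 39.3 and 40.8 with HRG and at 73.4 and 75.4 with EGF.

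A neighbouring EGLN3 region (chr14:34063477-34064208) was open in 6 HRG and 1 control libraries in BT474 (exact p = 0.0152, unadjusted). An LRRC23 intron 10.7 kb upstream of ENO2 (chr12:6903723-6904118) was open in 5 of 6 EGF and 5 of 6 HRG libraries and in 0 of 6 controls (exact p = 0.0152 each, unadjusted), at within-list percentiles of 1.61 to 33.4, and in no BT474R library.

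By level, 16 EGLN3 regions were tested. A region inside the canonical gene (chr14:33937926-33939056) rose by 14.87 with EGF and by 15.68 with HRG at 24 h in BT474 (SE 2.27, limma adjusted p = 0.00111 and 0.000759), from 54.4 and 56.7 to 69.7 and 71.1 and to 69.6 and 72.8. The region 130.6 kb upstream (chr14:34081209-34082175) was at 13.3 and 12.6 in the 12 h BT474R controls, at 59.2 and 56.3 with EGF and at 47.7 and 60.1 with HRG (rises of 44.81 and 40.95, SE 6.17, adjusted p = 0.000841 and 0.00466). The BT474R controls at 1 and 24 h were at 37.8 to 43.1, so the 12 h control pair was low, and the BT474R ligand libraries of 1 and 24 h, at 36 to 57.4, overlapped those of 12 h. The part of the short 12 h lists in this difference was not tested. A region 229.7 kb upstream (chr14:34179686-34181832) rose with EGF at 24 h in BT474R by 30.30 (SE 4.90, adjusted p = 0.00202), and by 10.34 with the scores of its split peaks summed, which still passed.

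Of the other EGLN3 regions, chr14:34084897-34085838 rose at 1 h in BT474 by 14.00 with EGF and 12.04 with HRG (SE 2.98, limma adjusted p = 0.0248 and 0.0235). The region at chr14:34111557-34112828 rose by 17.20 with EGF at 12 h in BT474 (SE 3.71, adjusted p = 0.0196). The region at chr14:34139508-34140343 was lower at 1 h in BT474, with differences of -10.71 for EGF and -16.10 for HRG (SE 2.51, adjusted p = 0.0362 and 0.0018). The region at chr14:34331598-34333120 was lower at 1 h in BT474, with differences of -4.91 for EGF and -5.92 for HRG (SE 0.98, adjusted p = 0.019 and 0.00259), and rose by 5.19 with EGF at 12 h (adjusted p = 0.0106). The EGLN3 promoter was called in no ligand comparison.

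The sequence letters of the regions were read last, in the 300 bases around each summit. The AP-1 letters TGANTCA were in 54 of 285 member windows (18.9%, against 19.3% of all 71600). Of the 38 members that rose in at least 1 ligand comparison 15 held them (39.5%, against 41.3% of all regions that rose), and of the 93 tested members called in no ligand comparison 6 did (6.45%, against 10.2%). Of the 21 members that rose with EGF at 24 h in BT474, 11 held them (52.4%, against 43.8% of all risen regions), and of the 7 that fell 0 did (against 3.76%). The share in risen members was close to that in risen regions of the whole series. At promoters the AP-1 letters were in 3.08% of member windows, against 5.04% of all windows there. Away from promoters they were in 23.6%, against 22.4%. The part of promoter position in the difference between risen and uncalled regions was not tested. Of the hypoxia cores, ACGTG or its reverse complement was in 44.6% of the 65 member windows at promoters, against 25% of all promoter windows, and GCGTG in 61.5%, against 51.6%. Away from promoters they were in 20% and 26.4% of member windows, against 16.2% and 20.4%. Of the 38 risen members 10.5% held ACGTG and 18.4% GCGTG, against 17.8% and 23.6% of all risen regions. Of the 93 uncalled members 32.3% and 53.8% held them, against 22.1% and 38.9% of all uncalled regions. The part of promoter position was not tested here either. A match is a description of letters and not a bound site.

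Other genes of the same pathways, 39 genes from neighbouring steps of carbon metabolism and the hypoxia response with 183 regions outside the member set, were counted in the same way. Of their 80 regions open in all 40 libraries, 13 (16.2%) were called with EGF at 24 h in BT474, 7 higher and 6 lower, and 10 (12.5%) with HRG, 7 higher and 3 lower. In BT474R 6 were called with EGF at 24 h (7.5%, all higher) and 0 with HRG. Between the lines 30 were higher and 34 lower (80%). The shares of all regions were given above, and those of these genes lay close to them.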

How the data were processed

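Chromatin accessibility was measured by ATAC-seq in 40 libraries of BT474 and BT474R. Per the study's methods and the labels, the authors trimmed reads with Trim Galore 0.6.6, aligned them to GRCh38 with BBMap and called peaks in each library with Genrich, leaving out mitochondrial reads and blacklisted regions. The options used, and so any shift of the cut sites, are not given in the sources read here. The deposited peak score is the area under the significance curve, with a minimum of 200. It rises with depth and peak width, and read depth is unknown. The deposited −log10 p and −log10 q columns were not used for results.

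Where a library had several peaks in a region, the highest score was taken. Presence was compared by Fisher's exact test (two-sided; scipy 1.17.1) and shared percentiles by limma 3.58.1 with 1 mean per group, each with Benjamini-Hochberg adjustment over all regions. Unadjusted p was used for presence against control, where the smallest possible p was 0.00216. Each line was fitted with its own spread for the ligands. All 40 libraries entered the comparison between lines. Both tests were checked on simulated data.

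Named regions were the up to 4 called members with the smallest p per comparison and direction, plus promoters missing from any library and the gene with most regions. The region over the ADM start was chosen after their values were seen. Members and lists were chosen with earlier results of these data known. Replicate numbers did not pair libraries. In BT474 5 of 45 pairs of groups, and in BT474R 11 of 45, had same-numbered deviations that correlated above 0.1. Alternatives covered the percentile scale, score and width limits, equal list lengths, a 5 kb window, summed peaks and each library left out.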

Additional observations from a re-analysis of the deposited data

Results flagged for a closer look

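The effect of a ligand differed between BT474R and BT474 by limma in 6 results at 5 member regions. All differences are BT474R minus BT474, averaged over 1, 12 and 24 h, on the shared percentile scale. The EGF effect differed by 14.00 in the PKM intron, by 6.81 in the CSNK1D intron of the SLC16A3 window, by -14.09 in the ENO1 intron and by -9.53 in the HK1 intron. The HRG effect differed by -17.21 in the ENO1 intron and by -7.52 in the SLC16A3 exon region. Each of the 6 results lost its call under at least 1 of 5 other alternatives. With within-list percentiles the PKM, CSNK1D and SLC16A3 exon differences no longer passed. With each of the 40 libraries left out in turn, the PKM difference ran from 12.01 to 15.99. The SLC16A3 exon difference ran from -8.58 to -6.45 and the HRG difference of ENO1 from -20.09 to -14.33. The EGF difference of ENO1 was lost in 18 of 40, that of the CSNK1D intron in 20 and that of HK1 in 28. The ENO1 region already stood at 45.3 to 70 in BT474R, and the part of that starting level in the smaller effect was not tested.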

How the results depend on the processing

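Of 78 named results, 35 kept their call under every alternative, and none reversed. Within-list percentiles, which move with list length, lost the call of 17 of the 65 results they applied to, and shifted the median of all regions by up to 4.68 (HRG at 12 h in BT474R). With them 20 members were called for EGF at 12 h in BT474 and, in BT474R, 0 for EGF at 1 h and 23 for HRG at 12 h. Summed scores gave 17, 0 and 1. The 5 kb window gave 9 for HRG at 12 h in BT474 and, in BT474R, 0 for EGF at 1 h, 4 for EGF at 12 h and 1 for HRG at 12 h. Regions open in all 20 libraries of BT474R gave 13, 16 and 4 for EGF at 12 h, EGF at 24 h and HRG at 12 h there, and log2 scores gave 3 for EGF at 1 h in BT474.

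For presence against control, equal numbers of top peaks gave 1 with EGF in BT474, 4 with EGF and 2 with HRG in BT474R. A score of at least 400 gave 6 with HRG in BT474 and 1 with EGF in BT474R, the 5 kb window gave 1 with EGF in BT474, and adjusting over the regions that could be called gave 0 with EGF and 0 with HRG in BT474. With a replicate block 4 members differed in HRG effect between lines, and 1 named call was lost (SLC16A3 at 24 h with HRG, adjusted p = 0.0513). It moved no other count by over 1.5 times. The cause of these changes was not tested.

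With each library left out, presence counts ran from 2 to 4 (EGF) and 3 to 5 (HRG) in BT474, from 0 to 5 for both ligands in BT474R, and from 63 to 67 between lines. Level counts in BT474 ran from 0 to 5, 2 to 29 and 12 to 33 for EGF at 1, 12 and 24 h, and from 5 to 14, 2 to 18 and 8 to 31 for HRG. In BT474R they ran from 0 to 3, 2 to 12 and 4 to 14 for EGF and were 0 to 0, 0 to 7 and 0 to 0 for HRG. Between lines they ran from 119 to 123, and for the differences of effects from 1 to 7 (EGF) and 2 to 4 (HRG). The count of 29 came without EGF 12 h replicate 1 and that of 2 without replicate 2, so the 12 h EGF count in BT474 rested on single libraries. Over the named results 1772 such fits kept the call and 188 lost it, among them, in BT474 with HRG, 14 of 20 for the PDK2 promoter and 12 of 20 for the ENO3-window region at 12 h, 11 of 20 for the SLC16A3 untranslated exon at 24 h and 6 of 20 for GAPDH upstream at 1 h, and 10 of 20 for the ALDOA-window region at 1 h in BT474R, 4 of 20 for the PGAM1 promoter, 3 of 20 for SLC2A1 upstream, and 2 and 3 of 20 for BNIP3 with EGF and HRG. With a lone library in a group, its spread is assumed to be that of the other groups. Depth could not be used to set limits, and 2 libraries per group limit every ligand comparison.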
